A study of Mus musculus with 20 samples.

Results

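Rora and Rorb encode retinoid-related orphan receptors (RORs) of the mouse, and are described here in hippocampus and amygdala of mice that lack a nuclear receptor corepressor in neurons. They are 2 of the 23412 gene symbols listed in each tissue's table. They were chosen by the amygdala TPM values of Rora, which were lower in NCoR1-KO and higher in SMRT-KO than in control. The amygdala values of both genes are therefore given as a description with no test, and tests were made in hippocampus, whose values the choice did not name. Whether libraries of the 2 tissues come from the same animals is not in the labels, so these tests may not be independent of the choice. Total RNA of both tissues was sequenced at postnatal day 21 in 20 libraries, with 4 control, 3 NCoR1-KO and 3 SMRT-KO libraries per tissue. NCoR1-KO animals combine the pan-neuronal driver Snap25-IRES2-cre with floxed Ncor1 alleles, and SMRT-KO animals combine the same driver with floxed alleles of the gene for SMRT. By the choice of driver, cells other than neurons should keep both genes. The labels do not say whether control animals carried Cre or a floxed allele. Nor do they tie each library of a group to its own animal. Every p-value therefore sets a difference only against the spread among these samples, and that spread may be technical.

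RORs are nuclear receptors that bind DNA as monomers at the ROR response element (RORE), an AGGTCA half-site preceded by an A/T-rich stretch, and activate transcription there. The REV-ERB receptors Nr1d1 and Nr1d2 bind the same elements and repress through NCoR1 and histone deacetylase 3, so that both families set the rhythm of clock genes such as Arntl. In the brain Rora is best known from the staggerer mouse, in which cerebellar Purkinje cells fail to mature, and it is also high in thalamus. Rorb marks neurons of sensory pathways, among them thalamic nuclei and layer IV of the cortex.

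Levels are given as TPM, in which reads are divided by transcript length and every library is brought to one total, so the sequencing depth is unknown. The number of genes with at least 1 TPM ran from 13787 to 14391 over the hippocampus libraries and from 14153 to 14509 over those of amygdala. Markers of hippocampal fields, such as Prox1 and Fibcd1, summed to 880 to 1208 TPM in hippocampus and to 353 to 495 TPM in amygdala. Markers of amygdala nuclei summed to 476 to 550.5 TPM in amygdala control, 528 to 547 TPM in NCoR1-KO and 378 to 467 TPM in SMRT-KO, and to 300.4 to 442 TPM in hippocampus. SMRT-KO lay below the other amygdala groups on this list. Of the hippocampus libraries only SMRT-KO library 2, at 442 TPM, reached the amygdala SMRT-KO range. The other 9 lay at 300.4 to 364.7 TPM. Ncor1 was at 81.6 to 137 TPM in hippocampus controls and at 41.9 to 61.1 TPM in NCoR1-KO, and at 71.3 to 127 TPM in amygdala controls and at 32.1 to 39.0 TPM in NCoR1-KO, with no overlap in either tissue. The SMRT-KO label was not checked against the level of its own deleted gene. Some hippocampus libraries stood apart in markers of neighbouring tissue. In SMRT-KO library 2 the thalamus markers summed to 1207 TPM, against 131 to 360.4 TPM in the other 9 hippocampus libraries, and Tcf7l2, a transcription factor of thalamic neurons, was at 124 TPM. In control 2 the striatum markers summed to 509.7 TPM, against 138 to 183 TPM in the other 9. Choroid plexus markers, such as Enpp2, summed to 14071 TPM in NCoR1-KO library 3, against 202 to 7205 TPM in the other 9. Hippocampus differences of Rora and Rorb are given with these libraries and without those that enter the comparison. Hippocampus values of other genes are mostly given over all libraries.

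Rora lies at chr9:68653786-69388246 on the plus strand of GRCm38 (GENCODE M21, gene ENSMUSG00000032238.17) and spans 734 kb. Its longest coding transcript has 10878 bases in 11 exons. An antisense gene, Gm15511, lies within the Rora span on the other strand and is not a row of the tables. The library kit marks strand, but no source used here states the strand setting of the counting. Rorb lies at chr19:18930605-19111196 on the minus strand (gene ENSMUSG00000036192.15) and spans 181 kb, with a longest coding transcript of 9293 bases in 10 exons and no overlapping gene.

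The bases before the annotated start of each gene are shown because the receptors of this family act at short promoter elements. The 250 bases before the start are from RefSeq, on GRCm38.p6, and capitals mark CpG dinucleotides. Rora, chr9:68653536-68653785, plus strand, and Rorb, chr19:19111197-19111446, minus strand, read as follows.
Rora: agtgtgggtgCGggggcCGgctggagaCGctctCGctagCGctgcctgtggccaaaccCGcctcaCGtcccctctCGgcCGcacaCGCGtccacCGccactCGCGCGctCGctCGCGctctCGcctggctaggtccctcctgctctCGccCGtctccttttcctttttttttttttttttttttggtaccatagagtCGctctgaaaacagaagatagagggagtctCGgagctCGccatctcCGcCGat
Rorb: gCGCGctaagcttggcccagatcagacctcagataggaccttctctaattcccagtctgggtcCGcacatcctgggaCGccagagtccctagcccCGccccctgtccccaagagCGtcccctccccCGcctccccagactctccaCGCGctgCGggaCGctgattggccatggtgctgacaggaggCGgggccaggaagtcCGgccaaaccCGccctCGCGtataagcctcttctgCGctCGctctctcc
The Rora window holds 26 CpG at a GC content of 61.2%, and the Rorb window 18 CpG at 66.0%. A second Rorb start at chr19:19001118-19001367 holds 4 CpG at 39.2%. None of the 3 starts holds AGGTCA on either strand in the 300 bases searched, from 250 before to 50 after the start, which says only that these letters are not in this window.

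The half-site AGGTCA was found on either strand in 5340 of 32851 promoters of this length, or 16.3%, and the RORE consensus in 126, or 0.384%. The consensus searched allows A or G as the first base of the half-site. These shares are per promoter, while a gene below counts if any of its starts holds the match. Among the clock genes listed as driven through ROREs, 3 of 6 held the half-site, and 1 of them, Arntl, held the RORE consensus. Among the ROR and REV-ERB genes it was 1 of 4, Nr1d2. Of the 7 Purkinje cell genes that depend on Rora, 3 had a promoter here, and 2 of these held the half-site, Pcp2 and Pcp4. Pcp2 also held the RORE consensus in its promoter, but not at an AGGTCA half-site. The windows below show the half-site in capitals for those of these genes that are described further on, each read on the strand that carries it. They are Arntl at chr7:113207524-113207553 (plus), Clock at chr5:76303598-76303627 (plus), Nfil3 at chr13:52981028-52981057 (plus), Nr1d2 at chr14:18239172-18239201 (minus) and Pcp4 at chr16:96467436-96467465 (minus).
Arntl: ttagggaaggcagaaagtAGGTCAgggacg
Clock: cctgatctgtcatctgtcAGGTCAgaggcc
Nfil3: cgagagatgtgtgttagtAGGTCAgttccg
Nr1d2: tccacggattggaagaagAGGTCAggaccg
Pcp4: ccatgatcatggctgatcAGGTCAcaatag
A match of letters is a description and not a shown binding site.

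In amygdala Rora was at 19.6, 15.3, 20.3 and 17.6 TPM in the 4 controls. It was at 10.5, 8.51 and 9.34 TPM in NCoR1-KO and at 27.7, 33.6 and 31.8 TPM in SMRT-KO. The 3 genotypes did not overlap: every NCoR1-KO library lay below every control, and every SMRT-KO library lay above them all. The means were 18.2 ± 2.25 TPM (SD, n = 4), 9.45 ± 1.00 TPM (SD, n = 3) and 31.0 ± 2.98 TPM (SD, n = 3), so NCoR1-KO stood at 51.9% and SMRT-KO at 170.4% of control. On the log2(TPM + 1) scale, which understates changes of low genes, the difference from control was -0.87 ± 0.11 (SE) in NCoR1-KO and 0.74 ± 0.11 (SE) in SMRT-KO. Between the knockouts it was -1.62 ± 0.12 (SE), NCoR1-KO minus SMRT-KO, with NCoR1-KO at 30.5% of SMRT-KO. These 3 differences share libraries and are the values by which Rora was chosen. In bulk tissue, fewer cells of a type and less RNA per cell cannot be told apart.

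Rorb, the close relative of Rora, was at 13.8, 12.2, 11.2 and 18.5 TPM in amygdala controls. It was at 12.5, 11.4 and 13.9 TPM in NCoR1-KO and at 17.5, 21.8 and 19.2 TPM in SMRT-KO. All NCoR1-KO libraries lay within the control range, and the SMRT-KO libraries overlapped the controls through control 4 alone. The means were 13.9 ± 3.21 TPM (SD, n = 4) in control, 12.6 ± 1.26 TPM (SD, n = 3) in NCoR1-KO and 19.5 ± 2.13 TPM (SD, n = 3) in SMRT-KO. The log2 difference from control was -0.12 ± 0.15 (SE) in NCoR1-KO and 0.48 ± 0.15 (SE) in SMRT-KO. The knockouts themselves did not overlap, at -0.59 ± 0.16 (SE) for NCoR1-KO minus SMRT-KO.

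**Figure D1:**
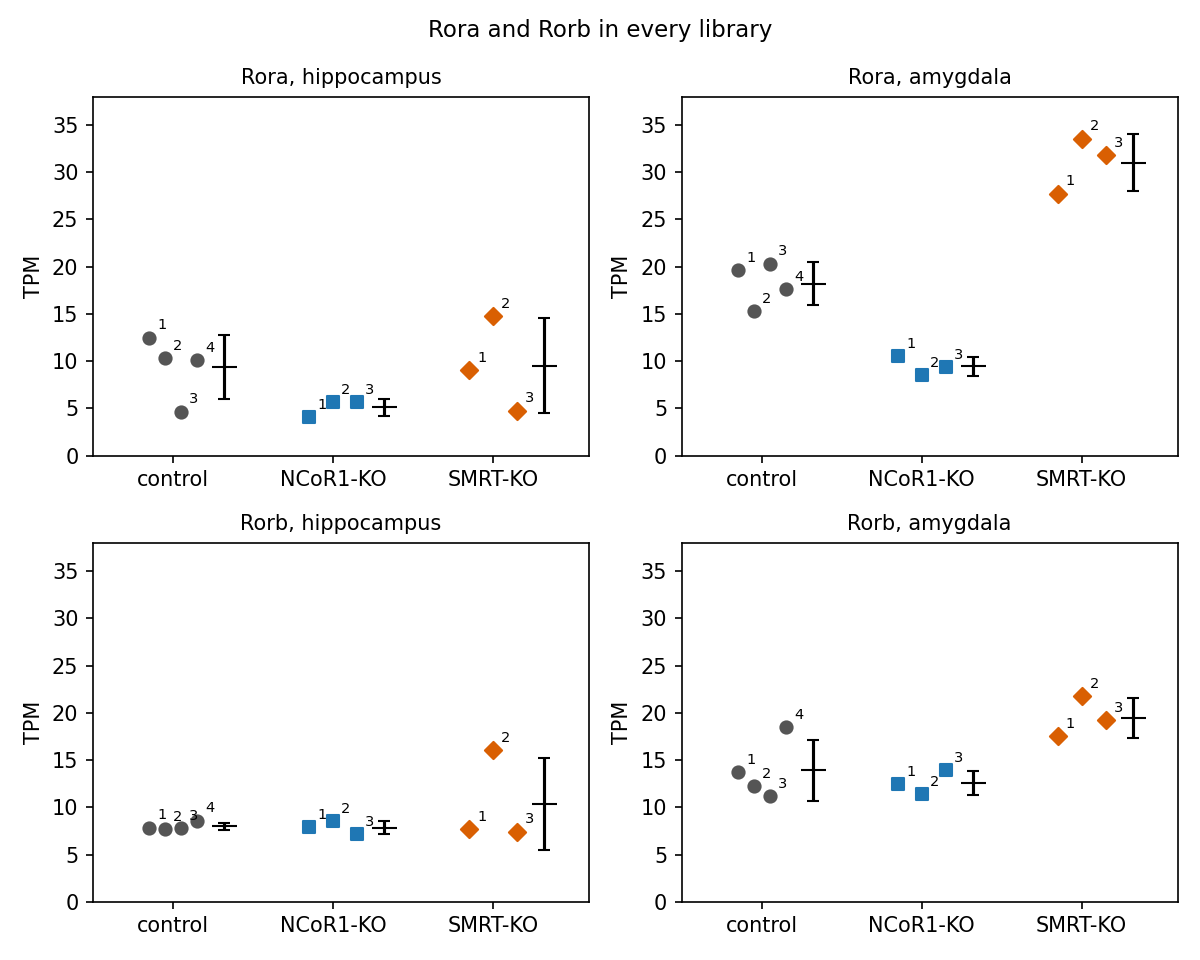
Level of Rora and Rorb (TPM, vertical axis from 0) in each library, by tissue and genotype. Points are libraries with their replicate number, and the bar beside each group is the mean with its SD. In amygdala the 3 NCoR1-KO libraries lie between 8.51 and 10.5 TPM for Rora and the 3 SMRT-KO libraries between 27.7 and 33.6 TPM, on either side of the controls, while the hippocampus groups overlap.

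The ratio of Rora to Rorb within a library, both in TPM, ordered the amygdala genotypes in part. It was 0.671 to 0.843 in NCoR1-KO, 0.954 to 1.81 in control and 1.54 to 1.65 in SMRT-KO. The SMRT-KO ratios lay within the control range, and the NCoR1-KO ratios lay below it. In hippocampus the ratio was 0.516 to 0.784 in NCoR1-KO, 0.596 to 1.59 in control and 0.640 to 1.18 in SMRT-KO, and all groups overlapped. Across libraries the log2 levels of the pair had r = 0.73 in amygdala (n = 10). In hippocampus r was 0.56 (n = 10) and 0.23 without SMRT-KO library 2 (n = 9). These correlations are descriptions, over libraries that share genotype.

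In hippocampus Rora was at 12.5, 10.3, 4.64 and 10.1 TPM in the 4 controls. It was at 4.07, 5.67 and 5.64 TPM in NCoR1-KO and at 9.05, 14.7 and 4.76 TPM in SMRT-KO. The NCoR1-KO libraries lay below 3 of the 4 controls, and control 3 lay among them, while the SMRT-KO libraries spread over the whole range of the tissue. The means were 9.39 ± 3.34 TPM (SD, n = 4), 5.13 ± 0.915 TPM (SD, n = 3) and 9.51 ± 5.001 TPM (SD, n = 3). NCoR1-KO differed from control by -0.70 ± 0.36 (SE) on the log2 scale, at 54.6% of the control mean, which did not pass the test (limma adjusted p = 0.998, two-sided exact permutation p = 0.114). SMRT-KO differed from control by -0.03 ± 0.36 (SE) (limma adjusted p = 0.994, exact permutation p = 1). NCoR1-KO minus SMRT-KO was -0.67 ± 0.38 (SE) (limma adjusted p = 0.823, exact permutation p = 0.3). With 3 against 4 libraries the smallest exact p is 0.0286, and with 3 against 3 it is 0.1. The percentage of all 14501 tested genes that passed was 0 in each of the 3 hippocampus comparisons. By limma, 658, 813 and 956 genes had an unadjusted p under 0.05 in NCoR1-KO against control, SMRT-KO against control and between the knockouts. That was 4.54%, 5.61% and 6.59% of the genes tested.

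Rorb was nearly level across hippocampus, at 7.85, 7.72, 7.78 and 8.59 TPM in control. It was at 7.88, 8.52 and 7.19 TPM in NCoR1-KO and at 7.68, 16.0 and 7.44 TPM in SMRT-KO. All libraries but 1, SMRT-KO library 2, lay between 7.19 and 8.59 TPM. The coefficient of variation among controls was 5.09% for Rorb against 35.6% for Rora. The log2 difference from control was -0.02 ± 0.21 (SE) in NCoR1-KO (limma adjusted p = 0.999, exact permutation p = 0.943) and 0.26 ± 0.21 (SE) in SMRT-KO (limma adjusted p = 0.813, exact permutation p = 0.629). NCoR1-KO minus SMRT-KO was -0.28 ± 0.23 (SE) (limma adjusted p = 0.887, exact permutation p = 0.7).

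SMRT-KO library 2, in which the thalamus markers were high, also had the highest value of both receptors in hippocampus. Of the 14 thalamus markers tested, 13 were above control in SMRT-KO with a median difference of 0.64 beside -0.02 for all genes tested. By limma none passed and 0 had an unadjusted p under 0.05, beside 5.61% of all genes tested. Without this library the SMRT-KO difference from control was -0.38 ± 0.34 (SE) for Rora and -0.07 ± 0.10 (SE) for Rorb. For NCoR1-KO minus SMRT-KO it became -0.32 ± 0.36 (SE) for Rora and 0.05 ± 0.10 (SE) for Rorb. The Rora difference between NCoR1-KO and control stayed at -0.70, with an SE of 0.30, and was -0.97 ± 0.31 (SE) without control 3 (limma adjusted p = 0.999). Without control 2, whose striatum markers were high, NCoR1-KO minus control was -0.64 ± 0.40 (SE) for Rora and -0.04 ± 0.24 (SE) for Rorb. Without NCoR1-KO library 3, whose choroid plexus markers were high, it was -0.77 ± 0.425 (SE) for Rora and 0.03 ± 0.25 (SE) for Rorb, so the small Rorb difference changed sign. The difference of SMRT-KO from control was 0.04 ± 0.40 (SE) for Rora and 0.25 ± 0.24 (SE) for Rorb without control 2. NCoR1-KO minus SMRT-KO was -0.74 ± 0.448 (SE) for Rora and -0.23 ± 0.27 (SE) for Rorb without NCoR1-KO library 3.

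**Figure D2:**
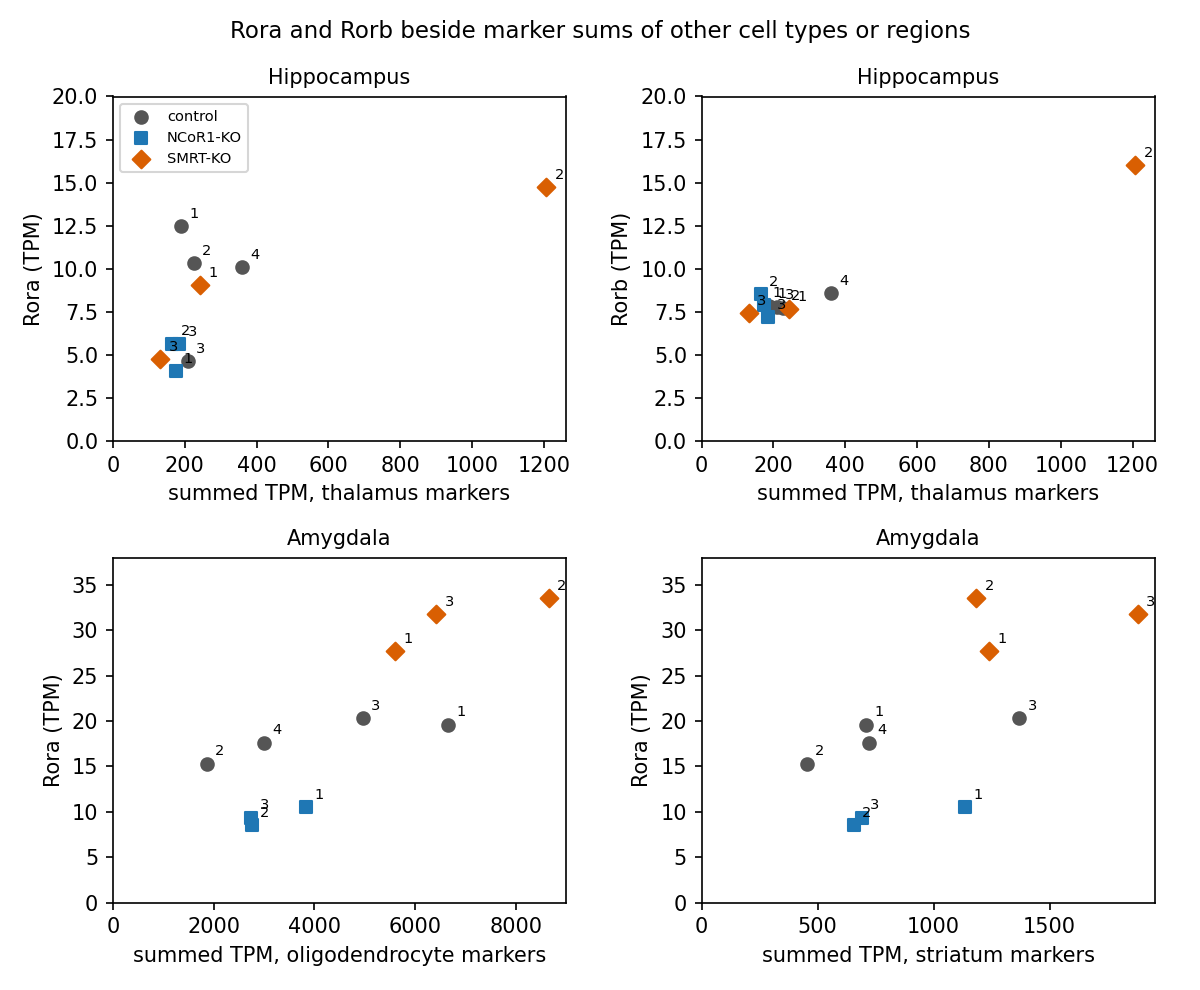
Level of Rora or Rorb (TPM, vertical axis) against the summed TPM of a marker list (horizontal axis) in each library, numbered by replicate, with genotype by colour and shape. In hippocampus SMRT-KO library 2 lies far to the right at 1207 TPM of thalamus markers and has the highest Rora and Rorb. In amygdala the SMRT-KO libraries lie at 5599.9 to 8649 TPM of oligodendrocyte markers and at 1183 to 1881 TPM of striatum markers, toward the right of both panels.

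Rora has a long transcript, and the level of long-transcript genes as a whole varied over the libraries. Over the 782 tested genes with a coding transcript longer than 8 kb, the median deviation from the tissue mean was -0.03 on the log2 scale in hippocampus control 3 and 0.09 to 0.16 in the other controls. The deviation of Rora in control 3 was -0.59. The median was -0.16 in NCoR1-KO library 1 and -0.31 in SMRT-KO library 3, where Rora deviated by -0.74 and -0.56. In NCoR1-KO libraries 2 and 3 it was 0.05 and 0.02, with Rora at -0.35 and -0.36, so here the signs were opposite. They were opposite too in SMRT-KO library 2, at -0.13 with Rora at 0.89, and alike in SMRT-KO library 1, at 0.13 and 0.24. In amygdala the same median, over 786 genes, was 0.02 to 0.13 in control and 0.05 to 0.11 in SMRT-KO, against -0.27 to -0.08 in NCoR1-KO. The median difference of these long-transcript genes was -0.19 between amygdala NCoR1-KO and control and 0.02 between SMRT-KO and control, beside -0.87 and 0.74 for Rora. The part of transcript length in these differences was not tested.

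Marker sums of other cell types and regions also moved with the amygdala groups. Oligodendrocyte markers, such as Mbp and Mog, summed to 1863 to 6648 TPM in control, 2749 to 3830.3 TPM in NCoR1-KO and 5599.9 to 8649 TPM in SMRT-KO. Of these 9 genes, 9 were above control in SMRT-KO, with a median difference of 0.88, beside -0.03 for all genes tested. Striatum markers, such as Drd1 and Adora2a, summed to 453 to 1369 TPM in control, 656 to 1134 TPM in NCoR1-KO and 1183 to 1881 TPM in SMRT-KO, and 12 of 12 were above control in SMRT-KO, with a median difference of 0.85. None of either list was at 0 in an amygdala library and none passed the test against control by limma. At an unadjusted p under 0.05 were 8 of the 9 oligodendrocyte and 9 of the 12 striatum markers, beside 3208 of 14606 genes, or 22%, over all genes tested. Choroid plexus markers summed to 133 to 1442 TPM in control, 178 to 199 TPM in NCoR1-KO and 407 to 1018 TPM in SMRT-KO, and 8 of 8 were above control in SMRT-KO with a median difference of 0.35, none passing and 1 at an unadjusted p under 0.05. Of the 8 markers of amygdala nuclei, whose sums were lowest in SMRT-KO, 6 were below control there with a median difference of -0.06, none passing and 1 at an unadjusted p under 0.05. The part of these cell types and regions in the Rora and Rorb values was not tested.

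Markers of the cortical layers, where Rorb is a layer IV gene, summed to 436 to 555 TPM in amygdala controls, 428 to 527 TPM in NCoR1-KO and 560.5 to 752 TPM in SMRT-KO, so SMRT-KO lay above both other groups. Of the 12, 10 were above control in SMRT-KO with a median difference of 0.32, none passed and 5 had an unadjusted p under 0.05 by limma (22% of all genes), and their part in the Rora and Rorb values was not tested. Astrocyte markers summed to 3905 to 4500 TPM in control, 3410.4 to 3515 TPM in NCoR1-KO and 3867 to 4449 TPM in SMRT-KO. Of the 12, 11 were below control in NCoR1-KO with a median difference of -0.22. At an unadjusted p under 0.05 by limma were 7 of them, beside 13.1% of all genes tested. In this list 1 gene passed, beside 0.411% of all genes tested. It was the glutamate transporter gene Slc1a2, which fell by 0.43 (limma adjusted p = 0.0291). The part of astrocyte RNA in the Rora difference of NCoR1-KO was not tested.

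The REV-ERB genes Nr1d1 and Nr1d2 encode the repressors that compete with RORs for ROREs. In the comparison of NCoR1-KO with control in amygdala, limma called 60 of 14606 genes, 0.411% of those tested, and 0 of these 2 receptors. In SMRT-KO against control it called 16 genes, 0.11% of those tested, and again 0 of 2. At an unadjusted p under 0.05 it was 1 of 2 in each, beside 13.1% of all genes tested in NCoR1-KO (1915 of 14606) and 22% in SMRT-KO. Nr1d2 differed from control by 0.00 ± 0.09 (SE) in amygdala NCoR1-KO and by 0.21 ± 0.09 (SE) in SMRT-KO, with limma adjusted p of 0.997 and 0.203. In hippocampus 0 of the 2 passed in any comparison. At an unadjusted p under 0.05 by limma were 1, 0 and 1, beside 4.54%, 5.61% and 6.59% of all genes, in NCoR1-KO against control, SMRT-KO against control and between the knockouts. Nr1d2 lay between 61.8 and 88.3 TPM over the 10 hippocampus libraries.

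Nr1d1, the REV-ERB that shares ROREs with Rora and is itself rhythmic, was at 90.8, 87.8, 81.2 and 77.1 TPM in amygdala controls. It was at 124, 113 and 94.1 TPM in NCoR1-KO and at 79.1, 80.8 and 69.0 TPM in SMRT-KO. All NCoR1-KO libraries were above all controls, the opposite order to Rora, at 0.38 ± 0.10 (SE) (limma adjusted p = 0.129), and SMRT-KO overlapped the controls at -0.14 ± 0.10 (SE). Between the knockouts Nr1d1 passed, at 0.52 ± 0.10 (SE) for NCoR1-KO minus SMRT-KO (limma adjusted p = 0.0155). In that comparison limma called 1679 of 14606 genes, 11.5% of those tested, of which 735 were higher and 944 lower in NCoR1-KO. The Nr1d1 call ended without NCoR1-KO library 2 or SMRT-KO library 3 (limma adjusted p = 0.0592 and 0.0687). In hippocampus Nr1d1 was higher by 0.34 ± 0.15 (SE) in NCoR1-KO than in control, with overlap and no call (limma adjusted p = 0.998).

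Of 6 clock genes listed as driven through ROREs, Nr1d1 again among them, 0 passed against control in either amygdala knockout. At an unadjusted p under 0.05 by limma were 4 of 6 in NCoR1-KO, beside 13.1% of all genes, and 2 of 6 in SMRT-KO, beside 22%. Between the knockouts 4 of 6 passed, beside 11.5% of all genes tested. Of these, 3 were higher and 1 lower in NCoR1-KO, with a list median of 0.15 beside -0.0002 for all genes tested. Arntl, which encodes the clock activator BMAL1, was at 25.2 to 28.9 TPM in amygdala control, at 32.3, 35.4 and 34.4 TPM in NCoR1-KO and at 26.5, 25.7 and 23.3 TPM in SMRT-KO. The NCoR1-KO libraries were above all others, by 0.30 ± 0.07 (SE) over control (limma adjusted p = 0.0883) and by 0.42 ± 0.07 (SE) over SMRT-KO (limma adjusted p = 0.0088). Clock, the partner of BMAL1, took the order of Rora. It was at 34.8 to 43.6 TPM in control, at 26.4, 29.8 and 32.3 TPM in NCoR1-KO and at 46.7, 47.7 and 44.8 TPM in SMRT-KO, with no overlap between any of the 3 groups. NCoR1-KO was below SMRT-KO by a difference of -0.64 ± 0.09 (SE) (limma adjusted p = 0.00435). The differences from control, of -0.37 ± 0.08 (SE) in NCoR1-KO and 0.27 ± 0.08 (SE) in SMRT-KO, did not pass (limma adjusted p = 0.1 and 0.108). Nfil3, a repressor that opposes D-box activators, was at 14.96, 15.8 and 14.2 TPM in NCoR1-KO and at 7.75, 8.42 and 6.64 TPM in SMRT-KO, a difference of 0.90 ± 0.18 (SE) (limma adjusted p = 0.0173). Its call ended without NCoR1-KO library 2 or SMRT-KO library 3 (limma adjusted p = 0.0656 and 0.0741). Npas2 and Cry1 did not pass, at -0.13 ± 0.08 (SE) and -0.12 ± 0.10 (SE).

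In hippocampus 0 of the 6 clock genes passed in any comparison, with 4, 0 and 3 at an unadjusted p under 0.05 by limma in NCoR1-KO against control, SMRT-KO against control and between the knockouts. Over all genes tested the shares at that p were 4.54%, 5.61% and 6.59%. Arntl was at 25.3 to 29.8 TPM in control and at 33.6, 31.4 and 34.5 TPM in NCoR1-KO, with no overlap, and the difference was 0.27 ± 0.08 (SE) (limma adjusted p = 0.998). Nfil3 was at 8.88 to 12.7 TPM in control and at 13.8, 17.4 and 14.6 TPM in NCoR1-KO, again with no overlap, at 0.55 ± 0.15 (SE) (limma adjusted p = 0.998). Clock overlapped between all hippocampus groups.

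**Figure D3:**
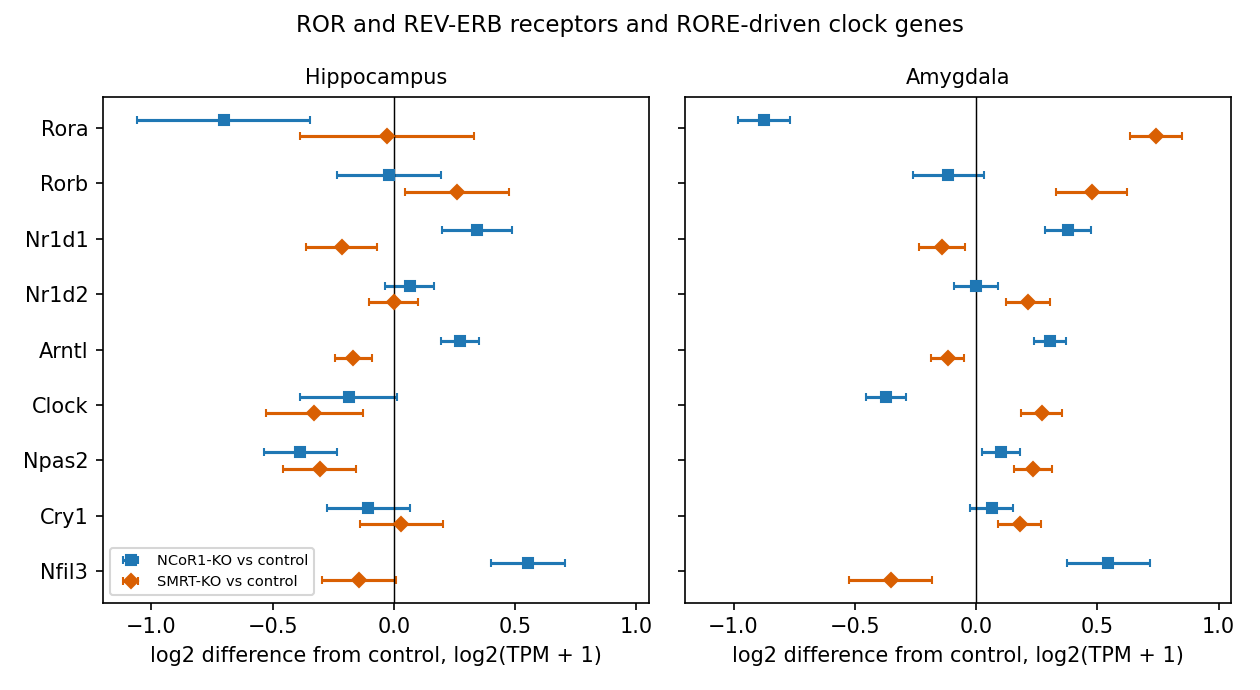
Log2 difference from control on the log2(TPM + 1) scale (horizontal axis) with its SE for Rora, Rorb, the REV-ERB receptors and the clock genes driven through ROREs, in hippocampus (left) and amygdala (right). Squares are NCoR1-KO and diamonds SMRT-KO, each against the same controls. In amygdala Rora and Clock lie below 0 in NCoR1-KO and above 0 in SMRT-KO, and Nr1d1, Arntl and Nfil3 lie on the other sides.

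Of 17 coregulators of RORs, 1 passed in amygdala NCoR1-KO against control, beside 0.411% of all genes tested. At an unadjusted p under 0.05 by limma were 3 of 17, beside 13.1% of all genes. The 1 that passed was the deleted Ncor1, which fell by 1.57 ± 0.16 (SE) (limma adjusted p = 0.00732). Without NCoR1-KO library 2 its adjusted p by limma was 0.0541, at -1.56. In hippocampus the Ncor1 difference was -1.22 ± 0.20 (SE), which did not pass over all genes (limma adjusted p = 0.79). In any hippocampus comparison 0 of the 17 passed. At an unadjusted p under 0.05 by limma were 1, 0 and 1, beside 4.54%, 5.61% and 6.59% of all genes, in NCoR1-KO against control, SMRT-KO against control and between the knockouts. Against control in amygdala SMRT-KO 0 of 17 passed, with 4 at an unadjusted p under 0.05 by limma, a share near the 22% of all genes. Between the amygdala knockouts 5 of 17 passed, beside 11.5% of all genes tested, 1 higher and 4 lower in NCoR1-KO. The list median was -0.11, beside -0.0002 for all genes tested. Those that passed were Ncor1 at -1.73 ± 0.18 (SE), Hdac3 at 0.21 ± 0.05 (SE), Hr at -1.28 ± 0.31 (SE), Nrip1 at -0.62 ± 0.16 (SE) and Kat2b at -0.41, with limma adjusted p of 0.0013, 0.0241, 0.0278, 0.0372 and 0.0477. Kat2b, an acetyltransferase, was named after its values were seen. Hr encodes Hairless, a corepressor that binds RORs, and was at 5.87 to 12.3 TPM in control, at 10.4, 7.07 and 8.2 TPM in NCoR1-KO and at 13.8, 34.98 and 21.95 TPM in SMRT-KO. The SMRT-KO libraries of Hr were above all others and spread widely. Hdac3 is the deacetylase of the NCoR1 and SMRT complexes, and Nrip1 a corepressor of several nuclear receptors. The calls of Hdac3, Hr, Nrip1 and Kat2b ended when single libraries were left out: for Hdac3 NCoR1-KO 1 or 2 or SMRT-KO 2 or 3 (limma adjusted p = 0.0562 to 0.0942), and for Hr any NCoR1-KO library or SMRT-KO 2 or 3 (0.0528 to 0.0972). For Nrip1 it was NCoR1-KO 1 or 2 or any SMRT-KO library (limma adjusted p = 0.0547 to 0.127), and for Kat2b any of the 6 knockout libraries (0.0568 to 0.148).

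Of 7 Purkinje cell genes that depend on Rora in cerebellum, 6 passed the filter on low values and Pcp2 did not. Against control 0 of 6 passed in either amygdala knockout, with 0 in NCoR1-KO and 3 in SMRT-KO at an unadjusted p under 0.05 by limma, beside 13.1% and 22% of all genes. Between the amygdala knockouts 3 of 6 passed, beside 11.5% of all genes tested, 1 higher and 2 lower in NCoR1-KO. The list median was 0.17, beside -0.0002 for all genes tested. Itpr1, a calcium release channel of the endoplasmic reticulum, was at 92.3 to 120.3 TPM in control, at 84.6, 84.9 and 103 TPM in NCoR1-KO and at 133, 151 and 157 TPM in SMRT-KO. All its SMRT-KO libraries were above all others, and the difference between the knockouts was -0.69 ± 0.11 (SE) (limma adjusted p = 0.00753). Slc1a6, a glutamate transporter gene, went the other way, at 13.8, 15.1 and 13.5 TPM in NCoR1-KO and at 8.94, 7.14 and 8.08 TPM in SMRT-KO, with control at 10.5 to 14.3 TPM. Its difference between the knockouts was 0.74 ± 0.11 (SE) (limma adjusted p = 0.00662). Pcp4, a calmodulin regulator, differed by -0.49 ± 0.13 (SE) (limma adjusted p = 0.0422), a call that ended without NCoR1-KO 2 or 3 or SMRT-KO 2 or 3 (0.0976 to 0.145). In hippocampus 0 of 6 passed in any comparison. At an unadjusted p under 0.05 by limma were 0, 1 and 1, beside 4.54%, 5.61% and 6.59% of all genes, in NCoR1-KO against control, SMRT-KO against control and between the knockouts.

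The oligodendrocyte and striatum markers lay lower in NCoR1-KO than in SMRT-KO in the same comparison, 9 of 9 and 12 of 12, with medians of -1.11 and -0.89. With the mean log2 level of the oligodendrocyte markers as a covariate limma called 38 genes between the knockouts, and with that of the striatum markers 66, against 1679 without, and these covariates were chosen after the data were seen. Of the clock, coregulator and Purkinje cell genes called, Ncor1 alone passed with either covariate. The other differences kept their direction while the call ended. Both marker lists differed between the knockouts, so these fits cannot tell marker level and genotype apart. With the oligodendrocyte and the striatum covariate, Clock was at -0.64 and -0.63, Nr1d1 at 0.59 and 0.50, Arntl at 0.35 and 0.31, and Nfil3 at 0.80 and 0.63. Itpr1 was at -0.72 and -0.66, Slc1a6 at 0.73 and 0.78, Nrip1 at -0.76 and -0.64, and Hdac3 at 0.26 and 0.23. Hr was at -0.60 and -1.04, Pcp4 at -0.45 and -0.27, and Kat2b at -0.14 and -0.26. Arntl, Nfil3, Hr, Pcp4, Kat2b and, slightly, Clock were smaller with either covariate than without, and Nrip1 and Hdac3 were larger. The adjusted p by limma of the genes whose call ended lay between 0.0536 and 0.540 over both covariates.

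**Figure D4:**
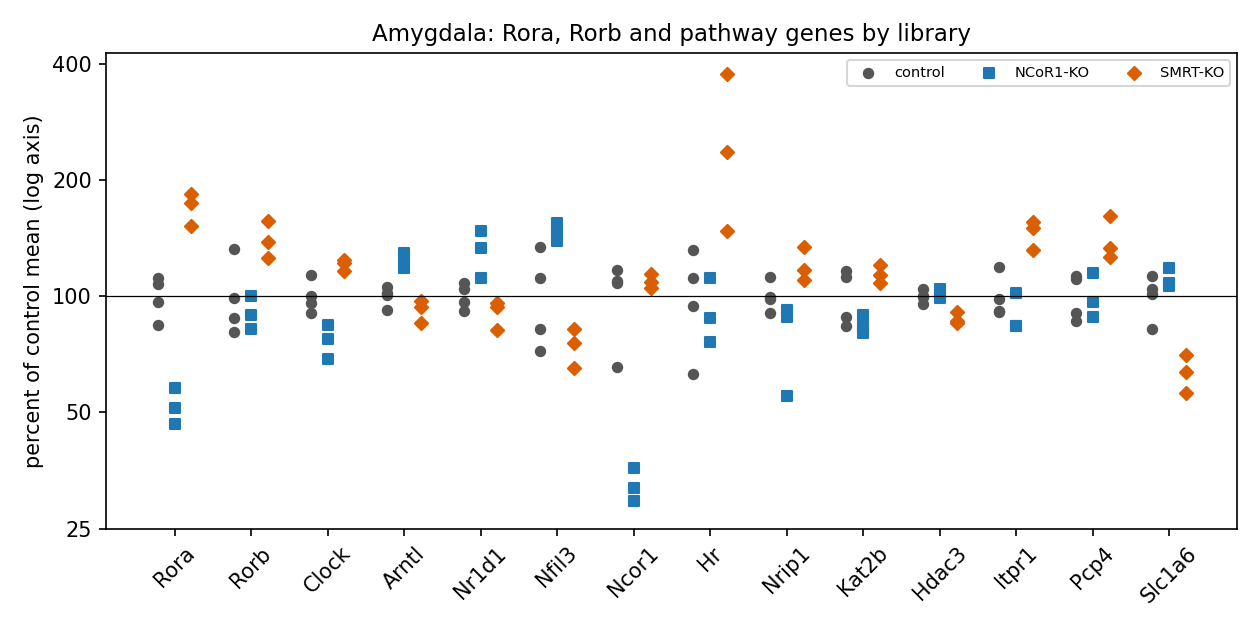
Level of Rora, Rorb and the pathway genes called between the amygdala knockouts, as percent of the control mean (vertical log axis), with 1 point per library, in control (circles), NCoR1-KO (squares) and SMRT-KO (diamonds). For Rora and Clock the NCoR1-KO libraries lie below and the SMRT-KO libraries above every control, and for Nr1d1 and Arntl the NCoR1-KO libraries lie above every control.

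Genes whose levels ran closest to Rora and Rorb over the libraries were found by the mean of the r in hippocampus and the r in amygdala, each over 10 libraries, among 11519 genes with a mean of at least 5 TPM in both tissues. For Rora the first 6 were Dst, Wipi1, Ptpn4, Itgav, Esyt2 and Ptprd, with mean r from 0.86 to 0.89. Ptpn4, a protein tyrosine phosphatase gene, had r = 0.80 in hippocampus and 0.96 in amygdala. It was at 17.0 to 34.7 TPM in amygdala control, at 7.85 to 9.87 TPM in NCoR1-KO and at 40.1 to 44.3 TPM in SMRT-KO. Genes picked by likeness to Rora or Rorb over these libraries tend to share their group order, which is no separate result. Dst, which encodes the cytoskeletal linker dystonin, was at 80.1 to 118 TPM in amygdala control, at 62.6 to 71.0 TPM in NCoR1-KO and at 117 to 131 TPM in SMRT-KO. The longest coding transcripts of the 6 genes ran from 3338 bases in Wipi1, through 5560 in Esyt2, 7054 in Itgav, 9899 in Ptprd and 10874 in Ptpn4, to 23279 in Dst. Leaving out hippocampus SMRT-KO library 2 kept r in hippocampus at 0.71 to 0.95 for the 6 genes.

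For Rorb the first 6 were Ramp3, Extl3, Cbln1, Lef1, Gabrd and Rasgef1b, with mean r from 0.91 to 0.96. Ramp3, a receptor activity modifying protein gene, had r = 0.98 in hippocampus and 0.94 in amygdala. Ramp3 and Lef1 are also in the list of thalamus markers. Without hippocampus SMRT-KO library 2 the hippocampus r of these 6 genes lay between 0.089 and 0.57, so the likeness to Rorb in that tissue rests on this library. In amygdala Ramp3 was at 5.23 to 12.3 TPM in control, at 6.23 to 6.97 TPM in NCoR1-KO and at 14.2 to 28.4 TPM in SMRT-KO. Gabrd, the delta subunit of the GABA-A receptor, was at 37.3 to 46.6, 27.9 to 40.2 and 52.6 to 75.3 TPM in the same groups. The thalamus markers as a list did not rise in amygdala SMRT-KO. Of 14 tested, 5 were above and 9 below control, with a median difference of -0.11. By limma none passed and 8 had an unadjusted p under 0.05, beside 22% of all genes. The list summed to 246 to 333 TPM in amygdala control, 259 to 343 TPM in NCoR1-KO and 227 to 255 TPM in SMRT-KO. Points in these correlations share genotype and library, and no p is given.

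The order of Rora levels over the 6 groups by mean TPM was hippocampus NCoR1-KO, hippocampus control, amygdala NCoR1-KO, hippocampus SMRT-KO, amygdala control and amygdala SMRT-KO. For Rorb it was hippocampus NCoR1-KO, hippocampus control, hippocampus SMRT-KO, amygdala NCoR1-KO, amygdala control and amygdala SMRT-KO. The tissues come from separate tables, so levels across them are set side by side with no test. Each group overlapped the next in this order for Rorb. For Rora the first 4 groups overlapped their neighbours, while hippocampus SMRT-KO, amygdala control and amygdala SMRT-KO did not overlap each other. Whether the knockout differences of Rora and Rorb differ between the tissues was not tested.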

How the data were processed

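The authors deposited gene-level TPM values for hippocampus and amygdala, 1 table per tissue with 10 libraries, rounded to 2 decimals and summing to between 999999 and 1000001 per library. The submitters' processing notes name RSEM 1.3.3, STAR 2.5.3a, fastp 0.21.0 and bcl2fastq and the build mm10, with no role or order. The annotation is not given in the sources here. Per the labels' protocols, RNA came from a lipid tissue kit and libraries from a stranded mRNA kit. Each column matched 1 labelled sample, and 0 columns belonged to other samples.

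Values were analysed as log2(TPM + 1) with limma 3.58.1 in R 4.3.3. Genes with at least 1 TPM in at least 3 of the 10 libraries of a tissue were tested, which kept 14501 genes in hippocampus and 14606 in amygdala, Rora and Rorb among them in both. The 3 genotypes were fitted together per tissue, with moderated variances that follow expression, and adjustment followed Benjamini and Hochberg over all tested genes at a threshold of 0.05. Exact permutation tests over libraries stand beside it for the 6 hippocampus differences of the pair. The fit was tested on simulated data.

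The genes, the lists and the tests were chosen with earlier results of these data known. Named are Rora, Rorb, Ncor1, Nr1d1, Nr1d2 and Arntl, the 6 genes most like each member, and from each list up to 4 of smallest p that passed or, where none passed, up to 2 given as values; other names were added after their values were seen. Another pseudocount (0.1), filter, normalization, moderation, set of libraries and a replicate block were tried, as were marker scores as covariates. The labels do not say whether replicate numbers pair the samples, and the main fit used no pairing. Same-numbered libraries of different genotypes had deviations with r from -0.490 to 0.499 in hippocampus and from -0.251 to 0.344 in amygdala, over 0.1 in 2 of 9 pairs in each. Pairs with different numbers reached 0.472 and 0.316, over 0.1 in 10 and 8 of 24. These r cannot decide whether the numbers pair the samples. Positions are from GENCODE M21 and promoters from RefSeq. Some results are not reported here.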

Additional observations from a re-analysis of the deposited data

Results flagged for a closer look

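Among 38 control groups of 4 libraries examined, 3 had 1 library far from the other 3, judged by the gap to its neighbour as a share of the group's range (Dixon's 95% critical value, 0.829). Chance flags about 1 in 20 groups. Rorb was at 8.59 TPM in hippocampus control 4, against 7.72 to 7.85 TPM in the other controls. Hr was at 17.8 TPM in the same library, against 12.7 to 13.2 TPM. Ncor1 was at 71.3 TPM in amygdala control 1, against 117 to 127 TPM, which still lay above every NCoR1-KO library.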

How the results depend on the processing

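All values are log2 differences or counts of genes called by limma. In amygdala, Rora kept its direction under every alternative run and each single library left out. These are the values by which Rora was chosen. Its genotypes did not overlap there, so leaving out a single library could not turn the direction. Without single libraries Rora lay at -0.95 to -0.81 for NCoR1-KO against control and 0.66 to 0.82 for SMRT-KO against control. Between the knockouts it lay at -1.69 to -1.55. Rorb lay at 0.39 to 0.61 for SMRT-KO against control and -0.66 to -0.51 between the knockouts. Over the other alternatives Rora lay at -0.94 to -0.80, 0.52 to 0.77 and -1.705 to -1.34. With the oligodendrocyte and striatum scores as covariates Rora was at 0.52 and 0.54 in SMRT-KO against control and at -1.34 and -1.43 between the knockouts. These covariates were chosen after the data were seen. Both marker lists differed between the genotypes compared, so these fits cannot tell marker level and genotype apart. Rorb against control in NCoR1-KO turned to 0.021 with the replicate block and lay between -0.20 and 0.021 with single libraries left out. In hippocampus, without single libraries, Rora lay between -0.97 and -0.55 in NCoR1-KO against control, -0.38 and 0.35 in SMRT-KO against control and -1.05 and -0.32 between the knockouts. Rorb lay between -0.074 and 0.034, -0.069 and 0.44, and -0.46 and 0.048. With quantile normalization, the replicate block and the thalamus score, Rorb in NCoR1-KO was at 0.010, 0.010 and 0.037; Rora in SMRT-KO was at 0.047 and 0.027 with the first 2; and Rorb between the knockouts was at 0.0098 with the thalamus score. The causes were not tested.

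Counts of genes called depended on the setting. In hippocampus 0 became 1 in NCoR1-KO against control with quantile normalization, the 2 groups alone or the thalamus score, 1 in SMRT-KO against control with quantile normalization, and 5 between the knockouts with the 2 groups alone, and lay between 0 and 1 without single libraries in each. In amygdala NCoR1-KO against control 60 became 16 with no filter, 4 with the 2 groups alone, 17 with no trend and 30 with the oligodendrocyte score, and lay between 0 and 126 without single libraries. In SMRT-KO against control 16 became 2 with no filter, 143 with a mean of at least 5 TPM, 2 with the 2 groups alone, 4 with the replicate block, 3 with no trend and 0 with either score, and lay between 0 and 697. Between the knockouts 1679 became 854 with the replicate block, 38 and 66 with the oligodendrocyte and striatum scores, and lay between 246 and 2218. Among the genes called between the amygdala knockouts, the calls of Nrip1, Pcp4 and Kat2b also ended with no filter and with no trend, that of Nrip1 with the 2 groups alone, that of Kat2b with quantile normalization, and those of Hdac3, Hr, Pcp4 and Kat2b with the replicate block. Against control in SMRT-KO, Itpr1 and Slc1a6 passed with a mean of at least 5 TPM, and Itpr1 with the replicate block. Without SMRT-KO 1, Hdac3, Hr, Slc1a6 and Itpr1 passed in that comparison (limma adjusted p = 0.0405, 0.0218, 0.0222 and 0.0262) and Nr1d2 between the knockouts (0.0375). Arntl passed in NCoR1-KO against control with the striatum score (0.0449). Differences near 0 changed sign. Nr1d2 was at 0.0021 and 0.018 in hippocampus SMRT-KO with quantile normalization and the replicate block, at 0.0076 and 0.018 in amygdala NCoR1-KO with the same, and there at 0.015 with the oligodendrocyte score. Arntl in amygdala SMRT-KO was at 0.0028 with the striatum score. Without single libraries Nr1d2 lay between -0.14 and 0.11 in hippocampus SMRT-KO, -0.049 and 0.20 between hippocampus knockouts and -0.036 and 0.043 in amygdala NCoR1-KO, and Ncor1 between -0.14 and 0.12 in hippocampus SMRT-KO and -0.027 and 0.25 in amygdala SMRT-KO. TPM keeps no depth, so no counting error can be set beside a value. The libraries of each group are few, and a missed threshold does not show that values did not differ.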
